A study of Mus musculus with 12 samples.

Results

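Purinergic signalling genes were examined in 3T3-L1 adipocytes, fat cells differentiated in culture from a mouse preadipocyte line, with altered expression of the DNA methyltransferase Dnmt3a. The members were 10 genes chosen by symbol around the ATP-gated channel gene P2rx7: the ion channel genes P2rx7, P2rx4 and P2rx5, the G protein-coupled receptor genes P2ry1, P2ry2, P2ry6 and P2ry14, the surface enzyme genes Entpd1 and Nt5e, and the adenosine receptor gene Adora1. Of these, 8 matched a row among the 27473 features of the count table. P2ry6 and Adora1 were not analysed here. P2rx7 was chosen from these same libraries, because it was higher on Dnmt3a knock-down and lower on Dnmt3a overexpression by a log2 of at least 1, so its levels are given as a description with no test. The other members were chosen with earlier results of these data known. By what rule is not recorded, and their tests are no independent support for a family pattern.

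The 4 groups had 3 libraries each. Mature adipocytes were transduced on day 8 with lentivirus carrying Dnmt3a (Dnmt3a), GFP in the pCDH vector (GFP), a short hairpin against Dnmt3a (shDnmt3a) or a scrambled hairpin (shScr), and all were harvested 4 days after transduction. All cells came from the 1 line, all had been differentiated with dexamethasone, IBMX and insulin, and all carried a lentivirus; which of the study's hairpins was sequenced is not given. The labels call the replicates biological triplicates without saying whether they were separate cultures, and the p-values given cover no more than library-to-library spread.

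Extracellular ATP, ADP, UTP and UDP-sugars act on 2 receptor families. P2X receptors are cation channels opened by ATP, and P2Y receptors couple nucleotides to G proteins. Ectonucleotidases at the cell surface degrade ATP stepwise to adenosine, with CD39 (Entpd1) removing the outer phosphates and CD73 (Nt5e) making adenosine from AMP, and adenosine acts on receptors of its own. P2X7 needs more ATP than other P2X receptors and is best known in macrophages, where its opening sets off the NLRP3 inflammasome. In adipocytes adenosine is known to restrain lipolysis through the A1 receptor.

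Libraries held between 29084732 and 47341091 counts. Within-group pairs differed by 2.52 to 10.7 times the variance of counting alone, so none was taken as the same library sequenced again. This spread cannot tell separate cultures from repeat preparations of 1 culture. The common coefficient of variation that edgeR fitted between replicates was 3.98% for Dnmt3a against GFP and 4.03% for shDnmt3a against shScr. Dnmt3a itself stood at 2734, 2789 and 2742 CPM (counts scaled to a common library size by edgeR's trimmed mean of M-values) in Dnmt3a libraries, against 92.8, 90.2 and 96.7 CPM in GFP libraries. In shDnmt3a libraries it stood at 40.8, 39.3 and 39.4 CPM, against 81.3, 86.5 and 78.7 CPM in shScr libraries. The 10 adipocyte markers summed to 19855 to 20565 CPM in Dnmt3a, 16054 to 16858 in GFP, 14046 to 14307 in shDnmt3a and 14587 to 15433 in shScr libraries. Preadipocyte and fibroblast markers summed to 439 to 456 CPM in Dnmt3a, 452 to 495 in GFP, 537 to 550 in shDnmt3a and 666 to 687 in shScr libraries, and no endothelial marker averaged over 1 CPM in any group.

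Among the members, P2rx7 had the largest ratio between group means. It had 370, 398 and 365 counts in shDnmt3a libraries, against 12, 8 and 5 in shScr libraries. These were levels of 10.3, 9.58 and 10.3 CPM in shDnmt3a and of 0.344, 0.211 and 0.162 CPM in shScr. All shDnmt3a libraries therefore stood far above all others, and they differed little among themselves. The mean level was 10.04 ± 0.404 CPM in shDnmt3a and 0.239 ± 0.0942 CPM in shScr (SD, n = 3 each), a ratio of 42.0. The fitted log2 fold change was 5.36 (SE 0.18), in rank 2 from the highest among 14115 tested features. Because P2rx7 was chosen by these values, its SE and plotted interval in either comparison make no allowance for that choice and are no test. P2rx7 passed the count filter there only through its shDnmt3a libraries, and on overexpression only through its GFP libraries.

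On Dnmt3a overexpression the counts of P2rx7 were few. It had 11, 2 and 7 counts in Dnmt3a libraries, against 19, 22 and 12 in GFP libraries, which were levels of 0.316, 0.0711 and 0.178 CPM against 0.397, 0.544 and 0.341 CPM. The lowest GFP library lay just above the highest Dnmt3a library, so the groups did not overlap but nearly touched. The mean level was 0.188 ± 0.123 CPM in Dnmt3a and 0.427 ± 0.105 CPM in GFP, and the log2 fold change was −1.13 (SE 0.42). It ranged from −1.67 without Dnmt3a replicate 1 to −0.81 without Dnmt3a replicate 2. The whole difference rests on 20 counts in Dnmt3a and 53 in GFP libraries.

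The controls of the experiments can be set side by side for P2rx7. The shScr libraries (0.239 CPM) and GFP libraries (0.427 CPM) overlapped, with a log2 fold change of −0.82 (SE 0.36) for shScr over GFP. Against GFP in place of shScr, the shDnmt3a libraries were still 23.5 times as high, a log2 fold change of 4.54 (SE 0.17). This comparison shares its shDnmt3a libraries with the knock-down comparison and is no second test of it. In the plot of levels by library, the high P2rx7 values are seen in shDnmt3a libraries only among the 12.

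**Figure D1:**
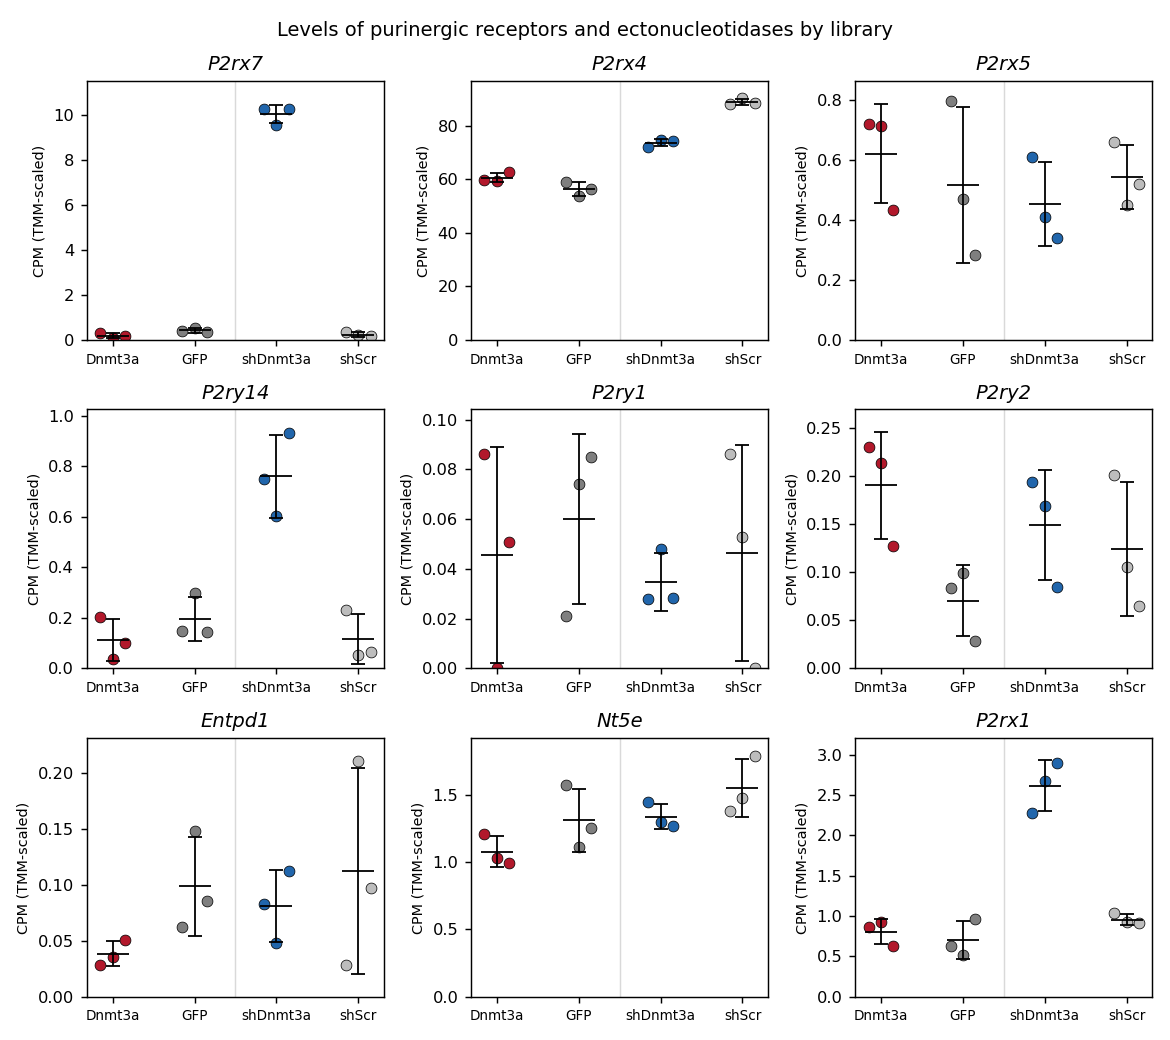
Level of each member and of P2rx1 in CPM (y axis from 0, scaled by the trimmed mean of M-values) in the Dnmt3a, GFP, shDnmt3a and shScr groups; points are libraries, and bars show the mean and SD (n = 3). P2rx7 lies near 10 CPM in shDnmt3a libraries and under 1 CPM in the others, P2rx4 lies above 50 CPM in every library, and P2ry1, P2ry2 and Entpd1 stay under 0.3 CPM.

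P2rx7 lies on the forward strand of chromosome 5 (NCBIM37, the mm9 build, chr5:123093920-123141441), and the annotated start of P2rx4 follows 16.2 kb beyond its end. No other annotated gene overlaps P2rx7. RefSeq gives it 2 starts, upstream and within the locus. Because Dnmt3a methylates cytosine in CG, the 250 bases before each start are shown with every CG in capitals. Beside them are those of P2rx4 and P2rx1, which also differed on knock-down, and of P2ry14, which has no test. The windows of P2rx3 and Alpl, which differed on knock-down too, were not read. Methylation was not measured in these files. The sequences are RefSeq's (GRCm38.p6 table) and were placed on NCBIM37 by exact match, 5′ to 3′ on the strand of each gene: P2rx7 at chr5:123093686-123093935 (+) and chr5:123100142-123100391 (+), P2rx4 at chr5:123157303-123157552 (+), P2rx1 at chr11:72812397-72812646 (+) and P2ry14 at chr3:58934685-58934934 (−).
P2rx7, upstream start: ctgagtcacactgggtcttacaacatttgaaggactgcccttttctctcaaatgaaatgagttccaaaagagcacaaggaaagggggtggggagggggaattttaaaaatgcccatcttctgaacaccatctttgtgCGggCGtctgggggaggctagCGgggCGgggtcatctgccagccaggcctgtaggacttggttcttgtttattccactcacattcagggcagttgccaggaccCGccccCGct
P2rx7, downstream start: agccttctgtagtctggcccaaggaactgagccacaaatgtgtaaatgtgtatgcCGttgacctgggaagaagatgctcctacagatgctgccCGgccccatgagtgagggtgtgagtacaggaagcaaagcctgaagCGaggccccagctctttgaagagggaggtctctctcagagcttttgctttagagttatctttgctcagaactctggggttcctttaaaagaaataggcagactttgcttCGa
P2rx4: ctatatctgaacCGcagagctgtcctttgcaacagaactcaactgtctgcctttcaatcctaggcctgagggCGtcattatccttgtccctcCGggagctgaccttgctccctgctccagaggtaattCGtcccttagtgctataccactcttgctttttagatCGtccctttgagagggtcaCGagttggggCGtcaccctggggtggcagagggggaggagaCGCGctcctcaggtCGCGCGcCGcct
P2rx1: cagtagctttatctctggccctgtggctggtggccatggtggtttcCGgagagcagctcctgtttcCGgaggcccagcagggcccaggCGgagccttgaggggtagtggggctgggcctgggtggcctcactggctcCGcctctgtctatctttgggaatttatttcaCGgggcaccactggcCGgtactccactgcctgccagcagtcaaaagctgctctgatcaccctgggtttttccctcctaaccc
P2ry14, the start nearest the gene body: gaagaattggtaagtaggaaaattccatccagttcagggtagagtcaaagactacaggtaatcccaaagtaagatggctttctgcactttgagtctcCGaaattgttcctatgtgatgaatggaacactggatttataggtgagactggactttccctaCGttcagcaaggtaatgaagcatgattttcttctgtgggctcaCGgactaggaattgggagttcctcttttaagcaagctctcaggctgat

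The upstream P2rx7 window held 6 CG and the downstream one 4. The same length before all 32851 RefSeq starts held a median of 6 CG, with quartiles of 2 and 16, and 92.1% held at least 1. At most 6 CG were found in 53.7% of these windows and at most 4 in 44.4%. CG reads the same on both strands and was the only motif searched. P2rx1 also had 6 CG and the P2ry14 window 3 (its other RefSeq starts had 1 to 4), whereas P2rx4 had 13 (70.6% of windows had no more) and Nt5e 21 (85.2%). P2rx5 was not matched. The windows of P2rx7, P2rx1 and P2ry14 were thus near or below the median in CG and those of P2rx4 and Nt5e above it. This describes the letters and no methylation state. The set leaves out P2rx3 and Alpl, so no contrast between genes that rose and genes that fell can be drawn from it.

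The genes around P2rx7 did not share its size of change. Within 500 kb of it, a window chosen after the data were seen, 19 other protein-coding genes were tested on knock-down: 3 were higher, 7 lower and 9 not called, where 23.3% of all features were higher and 22.5% lower. Their log2 fold changes lay between −0.53 for Tctn1, a ciliary protein gene, and 0.29 for Orai1, the calcium channel of store-operated entry. On overexpression the same 19 lay between −0.15 for Camkk2, a calmodulin-dependent kinase kinase, and 0.22 for Tmem120b, with 3 higher and 1 lower, where 14.3% of all features were higher and 12.9% lower. The nearest gene upstream with a test, Ift81, had a log2 fold change of 0.19 on knock-down, and P2rx4, the nearest downstream, −0.26.

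**Figure D2:**
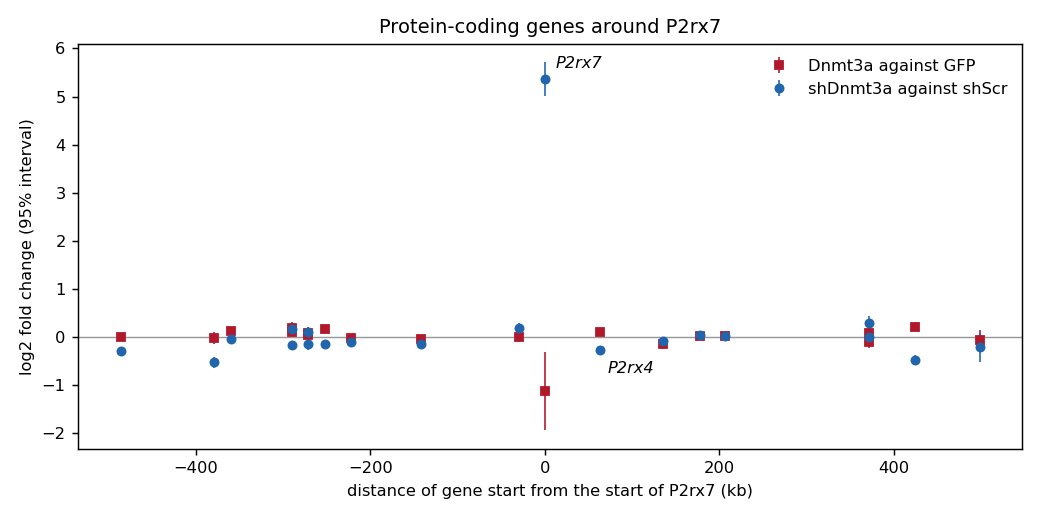
Log2 fold change (y axis; bars, 95% interval) of protein-coding genes tested within 500 kb of P2rx7 against the distance of their start from the start of P2rx7 in kb (x axis), for Dnmt3a against GFP (red squares) and shDnmt3a against shScr (blue circles). P2rx7 is at 5.36 on knock-down and −1.13 on overexpression, and every other gene lies between −0.53 and 0.29. P2rx7 was chosen by these values, so its intervals are no test.

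P2rx4, a P2X channel of broad expression, had the highest mean level per kb of counted feature among the receptor genes in each group. It stood at 72.2, 74.5 and 74.5 CPM in shDnmt3a libraries, against 88.1, 90.3 and 88.6 CPM in shScr libraries. The groups did not overlap and each varied by under 3 CPM. P2rx4 fell on knock-down by 0.26 on the log2 scale (SE 0.04, adjusted p = 1.09e-05, edgeR quasi-likelihood test with Benjamini-Hochberg adjustment over all features). On overexpression it stood at 59.7, 59.4 and 62.7 CPM in Dnmt3a libraries, against 58.8, 53.6 and 56.3 CPM in GFP libraries, a log2 fold change of 0.11 (SE 0.05, edgeR adjusted p = 0.0826) that was not called. Without GFP replicate 1 it was 0.14 (edgeR adjusted p = 0.0341). Leaving out any other library gave 0.07 to 0.12 with no call (edgeR adjusted p = 0.0959 to 0.286). DESeq2 did not call it either (adjusted p = 0.111).

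The order of P2rx4 among the groups depended on the control taken. It was higher in shScr than in GFP libraries by a log2 of 0.66 (edgeR adjusted p = 6.80e-14), and shDnmt3a libraries also stood above GFP libraries, by 0.39 (edgeR adjusted p = 6.52e-09). The lower level on knock-down is thus a level between those of shScr and GFP. The summed preadipocyte and fibroblast markers stood in the same order, shScr above shDnmt3a above GFP, but most single markers did not. Pdgfra, the largest part of the sum, averaged 343 CPM in shDnmt3a and 229 in GFP libraries, and Pdgfrb 160 and 195. Of 7 markers tested between shDnmt3a and GFP, 1 was higher and 4 lower, where 23.6% and 22.8% of all features were. The part of these markers in the P2rx4 result was not tested. The hairpin and overexpression sets are separate experiments, and for shScr against GFP the effects of vector, hairpin and culture cannot be told apart.

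P2rx5, a P2X channel, was at 0.284 to 0.794 CPM in every group and its groups overlapped in all comparisons. It had 22, 17 and 12 counts in shDnmt3a libraries, against 23, 17 and 16 in shScr libraries, with a log2 fold change of −0.25 (SE 0.31, edgeR adjusted p = 0.548). It had 25, 20 and 17 counts in Dnmt3a libraries, against 38, 19 and 10 in GFP libraries, with 0.18 (SE 0.33, edgeR adjusted p = 0.728). The intervals, −0.87 to 0.36 on knock-down and −0.46 to 0.82 on overexpression, leave room for changes of the size seen for P2rx4.

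P2ry14, the receptor for UDP-sugars such as UDP-glucose, was the other member higher on knock-down. It had 27, 25 and 33 counts in shDnmt3a libraries, against 8, 2 and 2 in shScr libraries. Every shDnmt3a library stood above every shScr library by more than the spread within either group. The mean level was 0.760 ± 0.164 CPM in shDnmt3a and 0.116 ± 0.0989 CPM in shScr (SD, n = 3 each), with a log2 fold change of 2.67 (SE 0.43). The log2 fold change was 3.62 without shScr replicate 1 and 2.29 without shScr replicate 2. P2ry14 passed the count filter only through its shDnmt3a libraries, so a difference was built in and its values are given as a description with no test. The log2 fold change was 1.94 for shDnmt3a over GFP, with the same shDnmt3a libraries, and −0.73 for shScr over GFP.

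On overexpression P2ry14 had 7, 1 and 4 counts in Dnmt3a libraries, against 7, 12 and 5 in GFP libraries, and it was below the count filter. The gene lies on the reverse strand of chr3:58918548-58934546, all of it inside the forward-strand gene Med12l. The library kit does not mark strand, so reads of the 2 genes cannot be told apart by strand. Whole gene spans were compared, and whether the counted exons overlap was not examined. Med12l stood at 16.9 CPM in shDnmt3a and 18.1 CPM in shScr libraries (log2 fold change −0.09, edgeR adjusted p = 0.289).

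P2ry1 and P2ry2 were close to the limit of detection. P2ry1, a receptor for ADP, had 0 to 3 counts in every library. P2ry2, which responds to ATP and UTP, had 8, 6 and 5 counts in Dnmt3a libraries, against 4, 4 and 1 in GFP libraries. It had 7, 7 and 3 in shDnmt3a libraries, against 7, 4 and 2 in shScr libraries. Neither passed the filter on low counts in any comparison, and a difference between groups was not detectable at this depth.

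The surface enzymes among the members stayed low. Entpd1, which codes for CD39, had 1, 1 and 2 counts in Dnmt3a libraries, against 3, 6 and 3 in GFP libraries. It had 3, 2 and 4 in shDnmt3a libraries, against 1, 8 and 3 in shScr libraries, and did not pass the filter. Nt5e, which codes for CD73, was measured with more counts: 52, 54 and 45 in shDnmt3a libraries, against 48, 56 and 55 in shScr libraries. On knock-down Nt5e had a log2 fold change of −0.20 (95% interval −0.56 to 0.17, edgeR adjusted p = 0.417). On overexpression it had 42, 29 and 39 counts in Dnmt3a libraries, against 75, 45 and 44 in GFP libraries, with −0.30 (95% interval −0.72 to 0.13, edgeR adjusted p = 0.339). Scaled to library size the Nt5e groups overlapped in both comparisons.

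Leaving aside P2rx7 and P2ry14, which have no test, 3 members passed the count filter: P2rx4, P2rx5 and Nt5e. On knock-down P2rx4 was lower and the others were not called. Over all features 23.3% were called higher and 22.5% lower in that comparison. On overexpression none of the 3 was called by edgeR, P2rx4 alone having an unadjusted p under 0.05 (0.0265), against 14.3% higher and 12.9% lower over all features. Between shScr and GFP, P2rx4 was higher and P2rx5 and Nt5e were not called, with 23.7% and 22.8% over all features. Between shDnmt3a and GFP, P2rx4 was again higher and P2rx5 and Nt5e were not called, with 23.6% and 22.8% over all features.

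Levels between genes were compared per kb of the counted feature. This length exceeded the longest annotated transcript for P2ry14 (9463 against 1797 bases), P2rx4 (5669 against 2662) and P2rx7 (5393 against 4936). For P2rx5 it fell short (2288 against 2395). The ranks below hold for the feature length only, which lowers the level per kb of P2ry14 most among these genes. In GFP libraries P2rx4 (9.92 ± 0.459 CPM per kb) and P2rx3 (9.57 ± 0.436 CPM per kb) led the 16 receptor genes in the table and did not differ beyond their spread. Adora2b, P2rx1, P2rx5 and P2ry4 followed at 0.210 to 0.287 CPM per kb, within one another's spread, and P2rx7 was in rank 7 at 0.0792 CPM per kb. In shDnmt3a libraries P2rx7 came in rank 3 at 1.86 ± 0.0749 CPM per kb, after P2rx4 (13.01) and P2rx3 (5.35) and before P2rx1 (1.01 ± 0.123), each apart from its neighbours by more than the SD. In shScr libraries P2rx7 was again in rank 7, at 0.0443 CPM per kb, and in Dnmt3a libraries in rank 9, at 0.0349 CPM per kb. P2ry14 was at or below 0.0803 CPM per kb of its long feature in each group.

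Other P2X genes also differed on knock-down. P2rx1, an ATP-gated channel known in platelets and smooth muscle, had 82, 111 and 103 counts in shDnmt3a libraries, against 36, 35 and 28 in shScr libraries. It rose by a log2 of 1.46 (SE 0.18, edgeR adjusted p = 1.52e-06), with no overlap between the groups. On overexpression it had 30, 26 and 25 counts in Dnmt3a libraries, against 30, 21 and 34 in GFP libraries, with 0.20 (SE 0.28, edgeR adjusted p = 0.648). P2rx1 and P2rx5 lie 145.0 kb apart on chromosome 11. Within 500 kb of P2rx1 the other tested genes ran on knock-down from −0.75 (Aspa) to 0.66 (Itgae).

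P2rx3, an ATP-gated channel known in sensory neurons, stood at 24.0, 23.0 and 20.2 CPM in shDnmt3a libraries, against 33.9, 33.9 and 33.2 CPM in shScr libraries. It fell on knock-down by 0.58 on the log2 scale (SE 0.06, edgeR adjusted p = 2.47e-07). It stood at 43.6, 42.0 and 43.6 CPM in Dnmt3a libraries, against 39.5, 38.6 and 42.1 CPM in GFP libraries, where the log2 fold change of 0.10 was not called (edgeR adjusted p = 0.126). The annotated P2rx3 overlaps the first 265 bases of Ssrp1, a histone chaperone gene on the other strand, and the value of P2rx3 is uncertain to that extent. Ssrp1 stood at 168 CPM in shDnmt3a and 147 CPM in shScr libraries, a log2 fold change of 0.19 (edgeR adjusted p = 1.72e-04), opposite in sign to that of P2rx3.

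**Figure D3:**
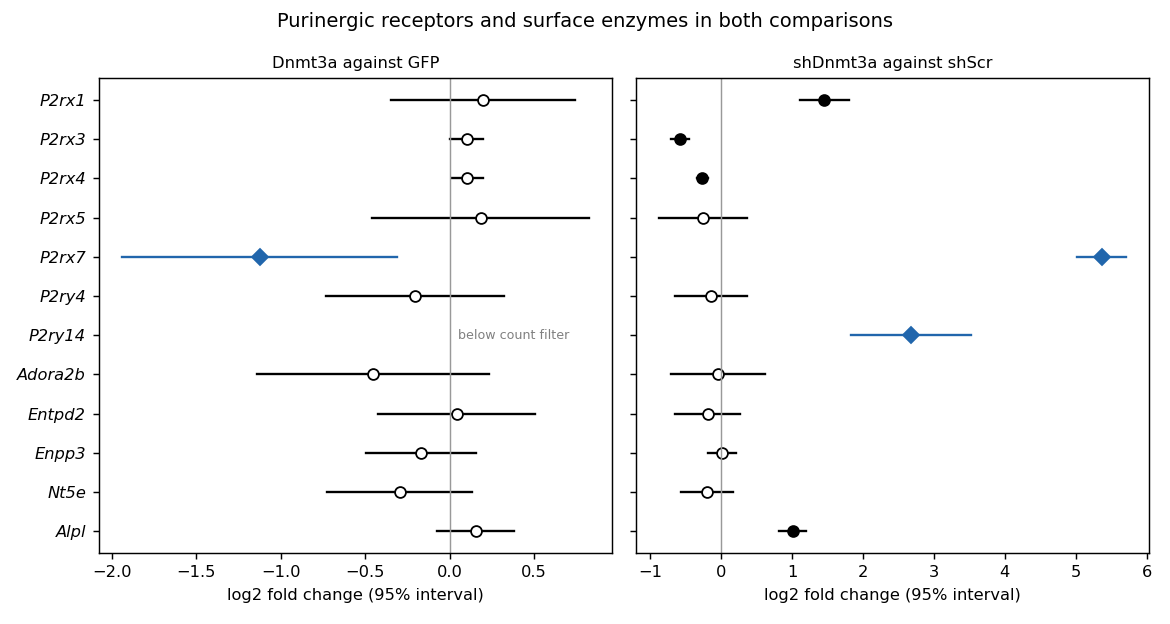
Log2 fold change (points) with its 95% interval (lines) for receptor and surface enzyme genes that passed the count filter in either comparison, Dnmt3a against GFP (left) and shDnmt3a against shScr (right); filled circles have an adjusted p under 0.05, open circles do not, and P2rx7, chosen from these values, and P2ry14, admitted by its shDnmt3a libraries, have no test (blue diamonds). Knock-down shows P2rx7 at 5.36, P2ry14 at 2.67, P2rx1 at 1.46 and Alpl at 1.01, with P2rx4 and P2rx3 below 0.

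Among the surface enzymes outside the members, Alpl, the tissue-nonspecific alkaline phosphatase that can strip phosphates from extracellular nucleotides, was at 8.71, 7.96 and 7.64 CPM in shDnmt3a libraries, against 3.96, 4.08 and 4.09 CPM in shScr libraries. It rose by a log2 of 1.01 (SE 0.10, edgeR adjusted p = 7.83e-08), and its overexpression value of 0.16 was not called (edgeR adjusted p = 0.348). Enpp3, an ectonucleotide pyrophosphatase, had log2 fold changes of 0.02 on knock-down and −0.17 on overexpression, and Entpd2, an ecto-ATPase, of −0.19 and 0.04, none of them called. The other 5 surface enzymes of the list were below the count filter in both comparisons, Entpd1 included.

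The NTPDases of intracellular membranes rose on knock-down in 3 of 4 cases: Entpd4 by 0.43, Entpd5 by 0.25 and Entpd7 by 0.13. Over all features 23.3% were called higher on knock-down and 14.3% on overexpression. On overexpression Entpd5 rose by 0.26 and Entpd7 by 0.13, so both were higher in each altered group than in its own control. Of the enzymes that handle adenosine and AMP, Adk, the kinase that returns adenosine to AMP, fell on knock-down by 0.32, whereas the AMP deaminase genes Ampd3 and Ampd2 rose by 0.79 and 0.39. On overexpression Ampd3 fell by 0.35 and Ampd2 by 0.13, and Adk, at 0.09, was not called. Ampd3 stood at 5.85, 5.34 and 5.66 CPM in shDnmt3a libraries, against 2.87, 3.42 and 3.51 CPM in shScr libraries, but also at 4.97 to 5.16 CPM in GFP libraries.

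Of the adenosine receptors Adora2b, which couples to cyclic AMP production, was the 1 tested: its log2 fold change was −0.04 on knock-down and −0.45 on overexpression, neither of them called. Adora3 had 6, 6 and 6 counts in shDnmt3a libraries, against 1, 0 and 1 in shScr libraries, and was below the filter. It had 1, 2 and 2 counts in Dnmt3a libraries, against 0 in each GFP library, which allows up to 3 counts per library.

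Among genes that act with P2X7 or carry ATP out of the cell, Nlrp3, the inflammasome sensor, had 0 to 7 counts, and Panx1, a channel for ATP release, 0 to 2. Casp1, the protease the inflammasome activates, fell on knock-down by 0.44 (edgeR adjusted p = 0.00502). Casp1 averaged 3.61 CPM in shDnmt3a and 4.92 in shScr libraries, but also 3.79 in GFP and 3.49 in Dnmt3a libraries. Casp4, known in mouse as caspase-11, rose on knock-down by 0.22 (edgeR adjusted p = 0.0304), and fell on overexpression by 0.80 (edgeR adjusted p = 4.71e-10), with 9.69, 11.4 and 11.6 CPM in Dnmt3a libraries, against 18.4, 20.1 and 18.1 CPM in GFP libraries. Casp4 averaged 10.3 CPM in shDnmt3a and 8.81 CPM in shScr libraries, so both hairpin groups also lay below GFP. Nek7, an NLRP3 partner, rose on knock-down by 0.28. Gja1, the connexin 43 gene, rose on knock-down by 0.41 and fell on overexpression by 0.46, the 1 call in each comparison among 5 tested genes for ATP release. Of all features, 23.3% were called higher in shDnmt3a than in shScr libraries, and 12.9% lower in Dnmt3a than in GFP libraries. Gja1 averaged 14.8 CPM in shDnmt3a and 11.2 in shScr libraries, against 4.78 in Dnmt3a and 6.57 in GFP libraries. Its ratio of shScr over GFP, 1.70, thus exceeded its ratio of shDnmt3a over shScr, 1.32. The 4 nucleoside transporter genes tested lay between −0.05 and 0.29 on knock-down without a call, and on overexpression Slc29a1 rose by 0.13 and Slc29a2 fell by 0.42.

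Among the transducers of P2Y receptors, Plcb2, a phospholipase C, fell on knock-down by 0.89 (edgeR adjusted p = 6.18e-06) and rose on overexpression by 0.39 (edgeR adjusted p = 0.0127). Itpr3, an IP3 receptor that releases calcium from the endoplasmic reticulum, rose on knock-down by 0.32 and fell on overexpression by 0.55. The controls themselves differed for Plcb2 and Itpr3. Plcb2 averaged 4.28 CPM in GFP and 6.94 in shScr libraries, against 5.66 in Dnmt3a and 3.74 in shDnmt3a libraries. Itpr3 averaged 39.0 CPM in GFP and 26.8 in shScr libraries, against 26.8 in Dnmt3a and 33.2 in shDnmt3a libraries. The inflammasome list had 2 higher and 1 lower of 8 tested on knock-down and 1 lower, Casp4, on overexpression. The G protein and phospholipase C list had 5 higher and 3 lower of 12 on knock-down and 1 higher and 3 lower on overexpression. Over all features 23.3% were higher and 22.5% lower on knock-down, and 14.3% and 12.9% on overexpression.

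Over all 10 purinergic lists without the members, 46 genes were tested in each main comparison. On knock-down 15 were higher and 7 lower, where 23.3% and 22.5% of all features were, with a median log2 fold change of 0.02 against 0.00 over all features tested. On overexpression 4 were higher and 9 lower, where 14.3% and 12.9% of all features were, with a median of −0.01 against −0.01. With the members counted, 10 of 50 were lower on overexpression. P2rx7 is among the 10 by the same threshold, but it was chosen for being lower and has no test. The 10 fell to 4 without GFP replicate 1, to 5 without Dnmt3a replicate 2 and to 6 without Dnmt3a replicate 3. The 4 that were higher became 2 without Dnmt3a replicate 1, 2 without Dnmt3a replicate 3 and 1 without GFP replicate 3. P2rx7 lay alone among the plotted receptor and enzyme genes at the upper left of the plot of both comparisons, where the rule that chose it places a gene.

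**Figure D4:**
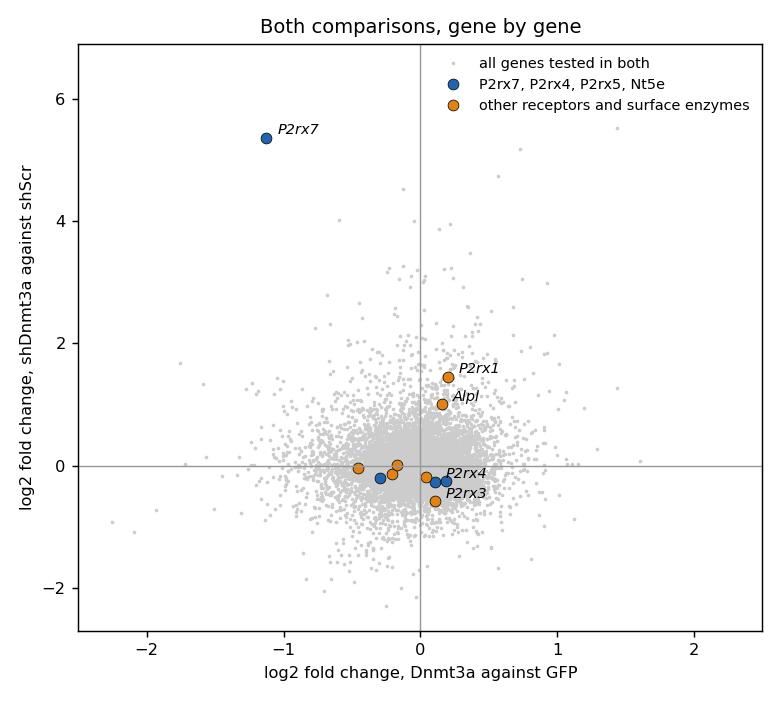
Log2 fold change of shDnmt3a against shScr (y axis) against that of Dnmt3a against GFP (x axis) for 13893 genes tested in both (grey), with P2rx7, P2rx4, P2rx5 and Nt5e in blue and other receptors and surface enzymes in orange; 1 gene beyond 2.5 on the x axis is not drawn. P2rx7 lies at −1.13 and 5.36, and the other coloured genes lie within 0.5 of 0 on the x axis.

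The features whose level followed that of P2rx7 most closely over the 12 libraries were Spp1 (Pearson r = 0.987 on log2 CPM), Hnrnpa1 (0.982), Setd5 (0.978), Soat1 (0.978) and Fam160b1 (0.978), of 13008 compared. The libraries share groups and depth, and shDnmt3a libraries alone are high in P2rx7, so the values mostly order genes by how those libraries stand apart. Spp1, the osteopontin gene, stood at a mean of 408 CPM in Dnmt3a, 482 in GFP, 1001 in shDnmt3a and 405 in shScr libraries. Within the purinergic lists the closest were Alpl (0.898), Entpd4 (0.870) and P2rx1 (0.867), and the most opposite were Adk (−0.926) and P2rx3 (−0.899).

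P2rx7, P2rx1 and P2ry14 are also known from blood cells, and markers of macrophages and leukocytes were read beside them. The 15 markers summed to 37.9 to 38.8 CPM in shDnmt3a and 33.3 to 35.4 CPM in shScr libraries, and to 29.9 to 31.3 CPM in Dnmt3a and 26.8 to 28.1 CPM in GFP libraries. On knock-down 9 were tested, of which 4 were higher (Cd53 by 1.94, Trem2 by 1.81, Cd74 by 1.54 and Cd14 by 0.44) and 2 lower (Mpeg1 at −1.64 and Cd68 at −0.35). Over all features 23.3% were higher and 22.5% lower. Between shScr and GFP, 2 of 9 tested markers were higher and 5 lower, where 23.7% and 22.8% of all features were. In shDnmt3a, shScr and GFP libraries Cd14 averaged 6.18, 4.59 and 6.21 CPM and Cd74 6.14, 2.14 and 5.21. In the same order Mpeg1 averaged 5.70, 17.8 and 3.31 CPM, Cd53 11.3, 2.96 and 3.26, and Trem2 3.45, 0.983 and 1.84. The defining genes Emr1 (F4/80), Tyrobp and Laptm5 had 0 counts in all 12 libraries, and Ptprc (CD45) had 1 to 9. In such bulk samples, more cells of a type and more RNA per cell cannot be told apart.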

How the data were processed

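The 12 libraries were RNA-seq of 3T3-L1 adipocytes in 4 groups of 3, made with a ribosomal RNA depletion kit and a library kit that does not mark strand. The authors deposited whole-number read counts per feature, with a length for each of 27473 features and no normalization. Per the labels, the submitters' processing notes name TopHat2 2.0.14, Picard 2.2.4, SAMtools 0.1.19, featureCounts 1.4.6, bcl2fastq 2.17.1.14, edgeR and the mm9 build. The paper adds that the mm9 genome used for counting was altered to reduce overlap between transcripts. The strand setting of the counting step is not given in these sources.

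Counts were tested in R 4.3.3 with the quasi-likelihood test of edgeR 4.0.16 after a filter on low counts (filterByExpr, minimum count 10) and TMM scaling, with Benjamini-Hochberg adjustment over all features and a call at an adjusted p under 0.05. The main comparisons were each fitted on their own 6 libraries. The shScr and shDnmt3a groups were set against GFP in 1 fit of all 12. Each difference is the altered group over its control, and CPM are TMM-scaled. A symbol with several features was taken by the feature with the highest mean count.

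The members, the gene lists and the rule for named genes were chosen with earlier results of these data known. The rule named all members, for each list at most the 3 genes with the smallest p in either main comparison, P2rx1, Dnmt3a, and the 5 features most like P2rx7 by Pearson's r (log2 CPM, prior count 2) with a mean of at least 20 counts; Panx1, Nlrp3, Adora3, the plotted genes and the neighbours were added after their values were seen. The fit was tested on simulated data. Alternatives were RLE scaling, DESeq2 1.42.0, other count filters, other libraries in the fit, a block, summed symbols and leaving out each replicate. P2rx6 was not analysed here.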

Additional observations from a re-analysis of the deposited data

How the results depend on the processing

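Purinergic genes lower on overexpression numbered 10 in the analysis reported, with P2rx7 counted though it has no test. DESeq2 called 5, and leaving out 1 library gave 4 to 9. Of those higher on overexpression, 4, leaving out 1 library gave 1 to 6. The other counts of calls moved by less than 1.5 times under each alternative run. P2rx7 kept its direction under all of them, at 5.18 to 5.71 on knock-down and −1.67 to −0.81 on overexpression with 1 library left out, but on overexpression its error was large under some: −1.15 with an SE of 0.60 by DESeq2, −0.92 with 0.47 without GFP replicate 2 and −0.81 with 0.43 without Dnmt3a replicate 2. The directions of P2rx5 and Nt5e, never called, were not stable: leaving out 1 library gave P2rx5 −0.074 to 0.67 for Dnmt3a over GFP, −0.25 to 0.50 for shScr over GFP and −0.51 to 0.24 for shDnmt3a over GFP, and gave Nt5e −0.094 to 0.18 for shDnmt3a over GFP. The cause was not tested. P2rx5 and P2ry14 gave no value with at least 1 CPM in 3 libraries, nor did P2rx7 on overexpression. Same-numbered libraries did not deviate together (correlations of −0.16 to 0.08, with 0 of 3 libraries closest to their own number on knock-down and on overexpression). With the replicate block the purinergic calls were 16 higher and 7 lower on knock-down, against 17 and 8 without it. On overexpression the block gave 4 higher and 9 lower. The 17 include P2rx7 and P2ry14, which have no test. Without the block 23.3% of all features were higher and 22.5% lower on knock-down, and 14.3% and 12.9% on overexpression. The block changed no call of P2rx4, P2rx5 or Nt5e. P2ry1, P2ry2 and Entpd1 are limited by depth, with 0 to 8 counts in each library.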
